A study of Mus musculus with 4 samples.

Results

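The major histocompatibility complex (MHC) genes and the genes that serve antigen presentation were examined in the visceral fat of obese mice. Members were taken by gene symbol, as every symbol beginning with H2- together with B2m, Cd74, Ciita, Tap1, Tap2, Tapbp, Nlrc5, Erap1, Cd80 and Cd86. This gave 53 of the 24421 genes in the deposited tables, 43 with an H2- symbol and 10 others. By role, 38 belonged to the class I pathway (32 heavy chain family genes and 6 partners), 12 to the class II pathway (10 chains, Cd74 and Ciita), 2 encoded co-stimulatory ligands, and H2-Ke6, an older locus name for a mitochondrial hydroxysteroid dehydrogenase, belonged to neither.

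Epididymal adipose tissue came from wild-type (WT) male C57BL/6J mice with different feeding histories on high-fat diet (HFD). Ctrl mice received HFD without a break for 14 weeks, starting when they were 10 weeks old. WC1 mice, the weight cycling group, started HFD at 8 weeks of age, ate it for 8 weeks, were switched to a standard diet for 2 weeks, and then returned to HFD for 6 weeks. Both groups therefore ended at 24 weeks of age after 14 weeks of HFD in total, and 2 poly(A) RNA-seq libraries were available for each. No label ties a library to a particular animal, so the p-values below measure the spread between these libraries, which may in part be technical.

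MHC class I molecules pair a heavy chain with beta-2-microglobulin and show peptides from inside the cell to CD8 T cells, and nearly all cells carry them. Class II molecules pair an alpha with a beta chain, are assembled on the invariant chain (Cd74), and show peptides from endosomes to CD4 T cells. They are made chiefly by dendritic cells, macrophages and B cells, and in fat also by some endothelial cells and adipocytes. The transactivators Ciita and Nlrc5 have no DNA-binding domain of their own and act on class II and class I promoters, respectively, through proteins bound to short promoter elements, the X and Y boxes.

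In the mouse genome build GRCm38 (the mm10 build named in the submitters' processing notes) and its GENCODE M21 annotation, 49 members were found, and 42 of them lay on chromosome 17 between 33915899 and 37483552. Ciita lies on chromosome 16 from 10480059 to 10528418, B2m on chromosome 2 from 122147686 to 122153083 and Nlrc5 on chromosome 8 from 94434356 to 94527272. H2-L, H2-Q8, H2-Q9 and H2-T9 had no entry in that annotation. It types H2-K2 as a transcribed pseudogene and H2-Q5, H2-T10, H2-Bl and H2-Ea-ps as polymorphic pseudogenes, and these were kept in their families by symbol.

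Promoter sequences from RefSeq (GRCm38.p6) were available for 36 of the 53 members. The 250 bases before the start are shown for 3 class II genes and 3 class I genes of contrasting behaviour in the results, so that their shared elements can be read beside the values. Capitals mark the core of the Y box (CCAAT, or ATTGG on the other strand) and a minimal X box pattern (CCTNGNAAC, either strand). The X box pattern has fixed letters, so a promoter without a match may still hold an X box. In H2-Eb1 the stretch actagcaac differs from the pattern only in its first letter and is not marked. Their positions were chr17:34287824-34288073 (minus strand) for H2-Aa, chr17:34305617-34305866 (plus strand) for H2-Eb1 and chr17:34152941-34153190 (plus strand) for H2-DMb1. Those of the class I genes were chr17:34000348-34000597 (minus strand) for H2-K1, chr17:35438905-35439154 (plus strand) for H2-Q7 and chr17:35262844-35263093 (plus strand) for H2-D1.
H2-Aa: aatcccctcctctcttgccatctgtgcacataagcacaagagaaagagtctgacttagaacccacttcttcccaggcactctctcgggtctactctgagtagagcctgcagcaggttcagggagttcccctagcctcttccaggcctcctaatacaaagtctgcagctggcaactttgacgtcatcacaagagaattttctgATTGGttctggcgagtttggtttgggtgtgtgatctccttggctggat
H2-Eb1: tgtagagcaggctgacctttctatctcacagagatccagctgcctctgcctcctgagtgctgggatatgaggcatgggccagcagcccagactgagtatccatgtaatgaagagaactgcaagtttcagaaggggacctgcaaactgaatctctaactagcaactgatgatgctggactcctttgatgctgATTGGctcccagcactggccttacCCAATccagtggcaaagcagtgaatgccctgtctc
H2-DMb1: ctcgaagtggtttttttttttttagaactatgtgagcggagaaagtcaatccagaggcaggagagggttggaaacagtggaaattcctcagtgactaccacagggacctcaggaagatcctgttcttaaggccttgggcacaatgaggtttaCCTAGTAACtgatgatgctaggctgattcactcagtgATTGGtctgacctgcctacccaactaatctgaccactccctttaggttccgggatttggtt
H2-K1: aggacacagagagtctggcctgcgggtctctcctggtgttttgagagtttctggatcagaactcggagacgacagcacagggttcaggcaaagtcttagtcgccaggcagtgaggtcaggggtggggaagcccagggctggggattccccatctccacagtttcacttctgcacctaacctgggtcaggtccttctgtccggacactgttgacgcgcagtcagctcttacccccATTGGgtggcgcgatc
H2-Q7: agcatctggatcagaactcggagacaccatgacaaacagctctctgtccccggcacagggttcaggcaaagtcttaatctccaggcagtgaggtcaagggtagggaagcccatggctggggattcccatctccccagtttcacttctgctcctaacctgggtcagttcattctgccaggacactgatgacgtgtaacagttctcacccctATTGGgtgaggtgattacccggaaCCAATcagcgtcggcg
H2-D1: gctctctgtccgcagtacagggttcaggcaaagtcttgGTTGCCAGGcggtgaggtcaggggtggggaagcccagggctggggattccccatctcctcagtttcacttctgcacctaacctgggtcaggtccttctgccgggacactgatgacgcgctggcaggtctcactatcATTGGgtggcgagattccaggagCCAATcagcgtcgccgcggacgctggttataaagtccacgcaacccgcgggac

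In the window from 250 bases before to 50 bases after the start, on either strand, the Y box core was present in 30 of the 36 member promoters (83.3%), compared with 37.9% of all 27025 promoters. It was found in 7 of 8 class II chain promoters, 19 of 22 class I heavy chain promoters and 3 of 4 promoters of class I partners. H2-K1 had a second copy after the start, outside the bases shown. The minimal X box pattern was present in 4 member promoters (11.1%, compared with 4.95% of all promoters), among them H2-DMb1 and H2-Ob of class II and H2-D1 of class I. In H2-DMb1 the match began at base -98 and the Y box core at -61. In H2-D1 the match lay much farther from the Y box cores, at -212 compared with -76 and -53. An interferon response-type pattern (GAAA, 2 bases of any kind, GAAA) was present in 4 (11.1%, compared with 3.49%), B2m and Erap1 included, and in 0 of the 8 class II chain promoters. An NF-kappaB-type pattern (GGGA, 3 bases of any kind, CCC) was present in 7 (19.4%, compared with 5.4%). Pattern matches were counted once per promoter, whether or not they overlapped another pattern, and they describe letters, not binding.

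Ctrl 1 held 71658062 reads, Ctrl 2 90965297, WC1 1 61655738 and WC1 2 61465029. Levels are given in CPM, reads of a gene divided by a library size that the authors had rescaled, and 3 reads were worth between 0.0345 and 0.0492 CPM. Differences are WC1 minus Ctrl on the log2(CPM + 1) scale with their standard error (SE), and a gene was said to rise or fall when its limma p-value, adjusted over the 14106 genes tested, was under 0.05. By this rule 17.9% of all genes tested changed, 10.2% rising and 7.71% falling, and the median difference over all genes was -0.02. The adipocyte markers Adipoq, Plin1, Cidec, Lep and Pparg were abundant in every library, with sums of 3842 to 10662 CPM. Of the epididymis markers, Lcn5, Lcn8 and Adam28 were at 0 in every library and Defb20 was at 0 in 3, where 0 allows up to 3 reads. WC1 2 stood apart from WC1 1 in several markers: the pan-leukocyte gene Ptprc was at 122 CPM compared with 280.3, the summed B cell markers were at 26.9 CPM compared with 7.47, and the summed mesothelial markers were at 118 CPM compared with 41.3. Ctrl 1 and Ctrl 2 were at 343 and 314 CPM for Ptprc, at 4.47 and 2.59 CPM for the B cell sum and at 87.2 and 59.5 CPM for the mesothelial sum.

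Class II genes were higher in WC1 mice. Of the 12 class II pathway genes, 11 passed the filter on low values (0.5 CPM in at least 2 libraries), 7 of these 11 rose (63.6%, compared with 10.2% of all genes tested) and 0 fell. The 7 were the transactivator Ciita, the invariant chain Cd74, the classical chains H2-Aa, H2-Ab1 and H2-Eb1, and the peptide exchange subunits H2-DMa and H2-DMb1. The median difference over the 11 was 0.64 (range 0.12 to 1.13). Both WC1 libraries lay above both Ctrl libraries for 9 of the 11, compared with 32.7% of all genes tested. When Ctrl 1 or Ctrl 2 was left out, 0 of the 11 passed the limma threshold and 6 of 11 kept an unadjusted p under 0.05 in each case, while over all genes only 6 and 12 calls were left. Leaving out WC1 1 or WC1 2 gave 9 and 7 calls, when 36.7% and 18.8% of all genes were called.

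Ciita, which drives transcription of class II genes, had 22.1 and 20.8 CPM in the Ctrl libraries and 51.4 and 45.3 CPM in the WC1 libraries. The groups were well separated, and the difference of 1.13 ± 0.09 (SE, n = 2 per group, limma adjusted p = 0.010) was the largest among the 39 members tested. The mean level was 2.25 times that of Ctrl (21.5 ± 0.90 and 48.3 ± 4.4 CPM, SD).

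The classical chains moved by similar amounts. H2-Aa, the alpha chain of the A molecule, had 550.1 and 586 CPM in the Ctrl libraries and 1013 and 890.2 CPM in the WC1 libraries (0.74 ± 0.11, limma adjusted p = 0.023). H2-Ab1, its beta chain, had 427 and 471 CPM in the Ctrl libraries and 812 and 765 CPM in the WC1 libraries (0.81 ± 0.10, limma adjusted p = 0.017). H2-Eb1, the beta chain of the E molecule, had 399 and 403 CPM in the Ctrl libraries and 759 and 691 CPM in the WC1 libraries (0.85 ± 0.09, limma adjusted p = 0.015). In all 3 genes WC1 1 was higher than WC1 2, and both were far above the Ctrl libraries. C57BL/6 mice lack a working E alpha chain, and its pseudogene H2-Ea-ps was at 0 in every library.

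Cd74, the invariant chain that occupies the class II groove until the endosome, had 1127 and 1231 CPM in the Ctrl libraries and 2089 and 1915 CPM in the WC1 libraries. It had the highest TPM of the class II pathway genes (1779 in Ctrl and 3314 in WC1, means) and rose by 0.76 ± 0.14 (limma adjusted p = 0.029). Without a filter on low values its adjusted p no longer passed the threshold. The invariant chain and the classical chains kept similar proportions. On the TPM scale, which corrects for transcript length, the level of Cd74 relative to the summed level of H2-Aa, H2-Ab1 and H2-Eb1 was 0.797 and 0.815 in Ctrl against 0.783 and 0.794 in WC1. The TPM level of H2-Aa relative to H2-Ab1 was 1.44 and 1.39 in Ctrl against 1.39 and 1.30 in WC1.

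H2-DMa and H2-DMb1 form the DM molecule, which removes the invariant chain fragment and edits the bound peptide. H2-DMa had 46.8 and 48.1 CPM in the Ctrl libraries and 74.6 and 72.7 CPM in the WC1 libraries (0.62 ± 0.07, limma adjusted p = 0.014). H2-DMb1 had 109 CPM in both Ctrl libraries and 170.4 and 172 CPM in the WC1 libraries (0.64 ± 0.06, limma adjusted p = 0.013). Their TPM ratio was between 0.328 and 0.340 in the 4 libraries. H2-DMb2, the second beta chain copy, had 3.79 and 3.47 CPM in the Ctrl libraries and 4.92 and 7.67 CPM in the WC1 libraries, without overlap, but its difference of 0.63 ± 0.21 missed the threshold (limma adjusted p = 0.093). H2-DMb1 and H2-DMb2 shared 11.3% and 10.3% of their 100-base stretches, so some reads could be assigned to either.

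The H2-O subunits, which restrain DM, and the second E beta chain gene did not pass the threshold. H2-Oa had 1.23 and 1.20 CPM in the Ctrl libraries and 1.56 and 1.30 CPM in the WC1 libraries (0.13 ± 0.13, limma adjusted p = 0.49). H2-Ob, its partner, had 3.04 and 2.94 CPM in the Ctrl libraries and 2.46 and 5.40 CPM in the WC1 libraries, so that the groups overlapped (0.24 ± 0.30, limma adjusted p = 0.60). H2-Eb2 had 0.512 and 0.368 CPM in the Ctrl libraries and 0.279 and 0.921 CPM in the WC1 libraries, and also overlapped (0.12 ± 0.23, limma adjusted p = 0.72). For H2-DMb2, H2-Ob and H2-Eb2 the high value was that of WC1 2. This library had the highest B cell, mesothelial, endothelial and adipocyte marker sums, and the part of these cells in the 3 genes was not tested. Without WC1 2 the difference of H2-DMb2 was 0.35, and those of H2-Ob and H2-Eb2 were -0.21 and -0.17.

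**Figure D1:**
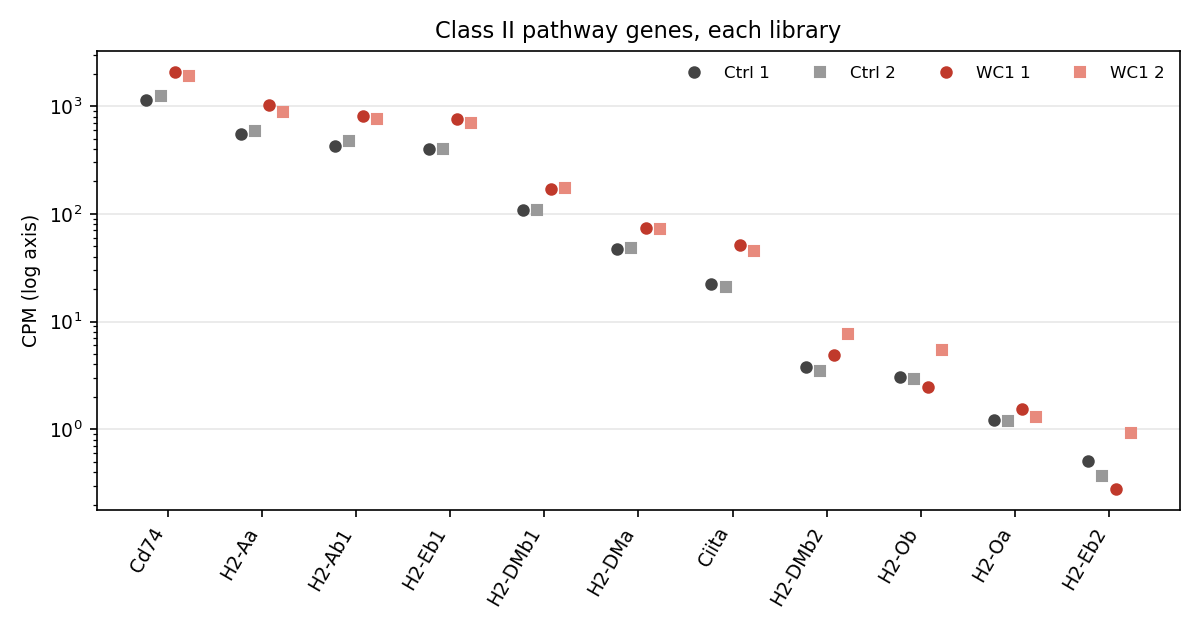
Levels of the 11 tested class II pathway genes in each of the 4 libraries, in CPM on a log axis, with genes ordered by mean level; circles are library 1 and squares library 2 of each group. From Cd74 down to Ciita both WC1 libraries lie above both Ctrl libraries, while H2-Ob, at 3.04 and 2.94 CPM in Ctrl against 2.46 and 5.40 CPM in WC1, and H2-Eb2 overlap.

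The cells that carry class II were then examined by marker genes, because in bulk tissue a change in the number of cells of a type and a change in RNA per cell cannot be told apart. The summed CPM of H2-Aa, H2-Ab1 and H2-Eb1 was 1376 and 1460.1 in Ctrl against 2585 and 2347 in WC1. Macrophage markers went the other way: 0 of 7 had a positive difference, Itgam and Mertk fell, and the list summed to 4263 and 4080.1 CPM in Ctrl against 3176 and 2122 CPM in WC1. The class II sum per unit of the macrophage gene Adgre1 was 2.04 and 2.36 in Ctrl against 4.95 and 6.64 in WC1, and per unit of Cd68 1.04 and 1.08 in Ctrl against 2.48 and 3.49 in WC1. Pan-leukocyte markers had 1 of 3 falling (Laptm5) and summed to 1608 and 1532 CPM in Ctrl against 1159 and 778 CPM in WC1.

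Dendritic cell markers were mixed. Of 7, Zbtb46 rose (0.61 ± 0.13, limma adjusted p = 0.039) and Flt3, Ccr7 and Clec10a fell. The list summed to 206 and 220.3 CPM in Ctrl against 174 and 161 CPM in WC1. Most of this sum was Clec10a, at 179 and 188 CPM in Ctrl against 149 and 129 CPM in WC1. The class II sum per unit of Zbtb46 was 339.8 and 399.5 in Ctrl against 442 and 338 in WC1, so the groups overlapped. Zbtb46 is made by classical dendritic cells and also by endothelial cells.

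Endothelial and adipocyte markers were higher in WC1, as class II genes were. All 4 endothelial markers (Pecam1, Cdh5, Kdr and Tie1) rose, with sums of 300.4 and 342 CPM in Ctrl against 659 and 868 CPM in WC1, and the class II sum per unit of Pecam1 was 11.8 and 10.4 in Ctrl against 11.4 and 8.00 in WC1. Of the 5 adipocyte markers 4 rose, with sums of 3842 and 4683 CPM in Ctrl against 7871 and 10662 CPM in WC1, and the class II sum per unit of Adipoq was 2.18 and 1.86 in Ctrl against 1.85 and 1.21 in WC1. Of the 4 B cell markers tested Cd79b rose, and Pax5, which was not tested, was between 0 and 0.492 CPM. The B cell, endothelial and adipocyte sums were all higher in WC1 2 than in WC1 1, whereas H2-Aa, H2-Ab1, H2-Eb1, Cd74 and Ciita were higher in WC1 1. T cell markers (0 of 5 called by limma, 0 with an unadjusted p under 0.05) summed to between 7.52 and 11.8 CPM with overlap, and mesothelial markers (0 of 3 called, 0 unadjusted) to between 41.3 and 118 CPM with overlap. Fibroblast markers fell for 2 of 3 (Pdgfra and Dcn), with sums of 2893 and 2862 CPM in Ctrl against 2595 and 2128 CPM in WC1. The part of each of these cell types in the class II difference was not tested.

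**Figure D2:**
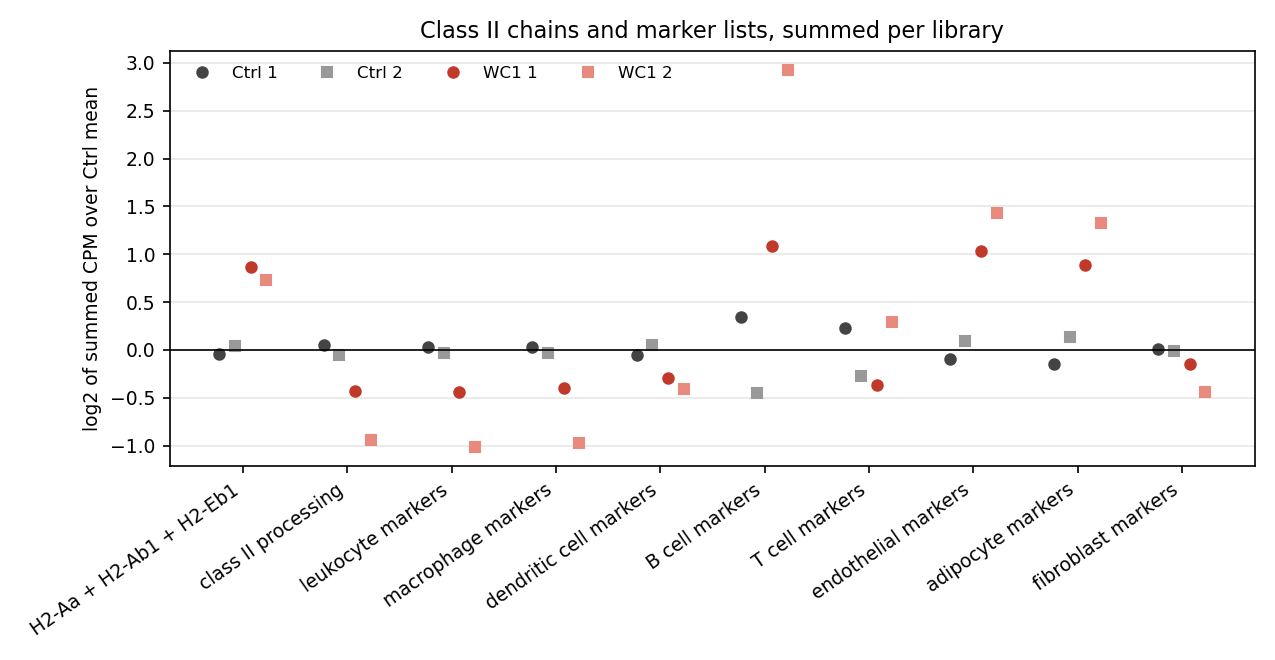
Summed CPM of the class II chains, of class II processing genes and of marker lists in each library, as log2 of the ratio to the mean of the Ctrl libraries; circles are library 1 and squares library 2. The class II sum (1376 and 1460.1 CPM in Ctrl, 2585 and 2347 CPM in WC1) lies above 0 in both WC1 libraries, as do endothelial, adipocyte and B cell sums, whereas macrophage, leukocyte and class II processing sums lie below 0.

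Endosomal enzymes that prepare peptides for class II did not follow the class II chains. All 5 had lower values in both WC1 libraries than in either Ctrl library (compared with 36.6% of all genes tested), 2 fell, and the median difference was -0.79. Ifi30, the thiol reductase of the endosome, had 444 and 421 CPM in the Ctrl libraries and 293 and 212 CPM in the WC1 libraries (-0.79 ± 0.17, limma adjusted p = 0.038). Lgmn, the asparaginyl endopeptidase, had 1428 and 1322 CPM in the Ctrl libraries and 935 and 665 CPM in the WC1 libraries (-0.80 ± 0.19, limma adjusted p = 0.049). Ctss, the cathepsin that trims the invariant chain, had 2529 and 2334 CPM in the Ctrl libraries and 1737 and 1125 CPM in the WC1 libraries but missed the threshold (-0.80 ± 0.24, limma adjusted p = 0.081). These enzymes are abundant in macrophages, whose markers were lower in the same libraries, and the part of macrophage number was not tested.

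Class I genes differed among themselves, and most were not called. Of the 38 class I pathway genes, 25 passed the filter and 5 of these rose (20.0%, compared with 10.2% of all genes tested), 0 fell, and the median difference was 0.37 (range -0.24 to 0.97). The 5 were all nonclassical heavy chain genes: H2-Q4, H2-Q6, H2-Q7, H2-Q9 and H2-M2. Both WC1 libraries lay above both Ctrl libraries for 18 of 25 and below them for 4 (compared with 32.7% and 36.6% of all genes tested). The number passing the threshold depended on the method, since limma called 3 when low values were kept in and 3 when near-identical genes were summed, while edgeR called 7, DESeq2 13 and limma on the TPM values 12, all higher. The share of all genes called in either direction was 7.28% and 17.9% in the first 2 of these fits and 17.6%, 27.4% and 18.7% in the others. Genes called higher were 788 of 18132 with low values kept in and 1441 of 14102 with near-identical genes summed. Of 14106 genes, edgeR called 1476 higher, DESeq2 2125 and limma on the TPM values 2054. Leaving out Ctrl 1 or Ctrl 2 gave 0 calls by limma (7 and 8 with an unadjusted p under 0.05), leaving out WC1 1 gave 14 (H2-T23 lower, the rest higher) and leaving out WC1 2 gave 7, when 36.7% and 18.8% of all genes were called.

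**Figure D3:**
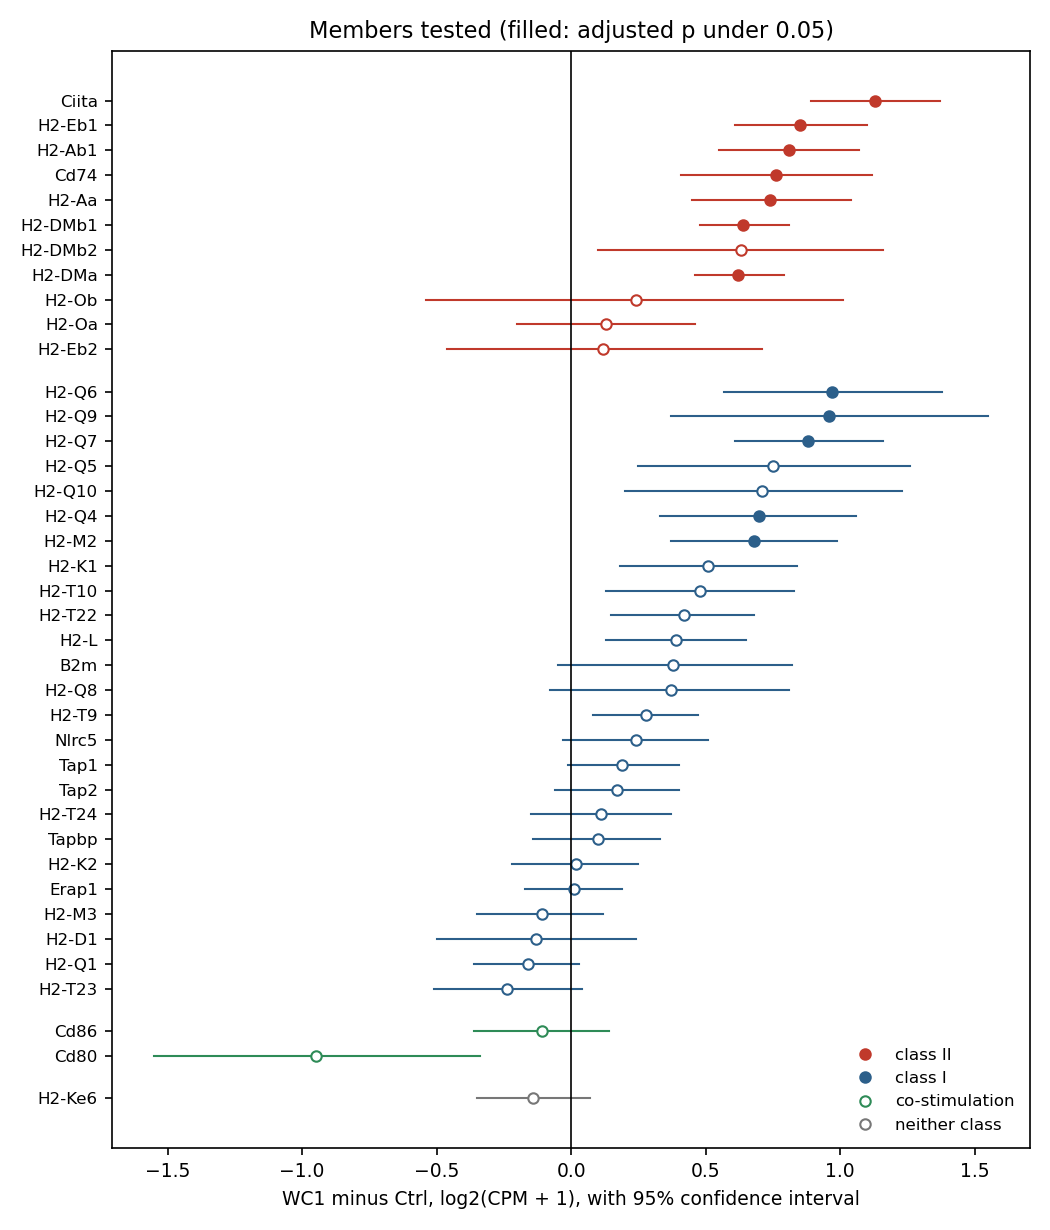
Difference between WC1 and Ctrl for the 39 members tested, in log2(CPM + 1), with 95% confidence intervals from limma; filled points had an adjusted p under 0.05 and colours give the pathway. The filled points are 7 class II genes (0.62 to 1.13) and 5 class I heavy chain genes (0.68 to 0.97), all right of 0, and Cd80 (-0.95, open) is farthest left.

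The H2-Q genes, which encode the Qa-2 family and related heavy chains, carried most of the class I calls. Of 9 H2-Q symbols 8 were tested, 7 had a positive difference and 4 rose, with a median of 0.73. Over all genes tested, 6655 of 14106 differences were positive and 10.2% of genes rose. Reads of H2-Q6, H2-Q7 and H2-Q9 are hard to assign, so their calls cannot be counted as separate signals. With near-identical genes summed, limma called 3 class I genes, compared with 5 when they were kept apart. H2-Q7 had 8.01 and 9.24 CPM in the Ctrl libraries and 16.3 and 17.2 CPM in the WC1 libraries (0.88 ± 0.11, limma adjusted p = 0.017). H2-Q6 had 14.4 and 13.0 CPM in the Ctrl libraries and 24.0 and 32.2 CPM in the WC1 libraries (0.97 ± 0.16, limma adjusted p = 0.024). H2-Q4 had 80.5 and 88.5 CPM in the Ctrl libraries and 121 and 157 CPM in the WC1 libraries (0.70 ± 0.14, limma adjusted p = 0.036), and without a filter on low values it missed the threshold (adjusted p = 0.062, and from 0.00017 to 0.23 over 17 alternatives). In each of these genes both WC1 libraries were clear of both Ctrl libraries.

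H2-Q9, a near copy of H2-Q7, had 16.9 and 14.1 CPM in the Ctrl libraries and 24.7 and 38.8 CPM in the WC1 libraries (0.96 ± 0.23, limma adjusted p = 0.048). It missed the threshold in 6 of 16 alternatives, over which the adjusted p ran from 0.00023 to 0.22. Reads of H2-Q6, H2-Q7, H2-Q8 and H2-Q9 are hard to assign, and summed as 1 gene they were at 39.7 and 36.6 CPM in the Ctrl libraries and 65.5 and 89.2 CPM in the WC1 libraries. This sum also rose (0.98 ± 0.16, limma adjusted p = 0.024). Outside the 4 genes, H2-Q5 and H2-Q10 shared 11.4% and 5.81% of their 100-base stretches with H2-Q7, so some reads could be assigned to either.

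The remaining H2-Q genes did not pass the threshold. H2-Q5 had 3.87 and 4.09 CPM in the Ctrl libraries and 5.98 and 9.07 CPM in the WC1 libraries (0.75 ± 0.20, limma adjusted p = 0.059). H2-Q10, whose product is secreted, had 4.87 and 5.26 CPM in the Ctrl libraries and 11.0 and 7.24 CPM in the WC1 libraries (0.71 ± 0.20, limma adjusted p = 0.068). H2-Q1 was the exception in direction, at 24.2 and 23.6 CPM in the Ctrl libraries and 21.1 and 21.3 CPM in the WC1 libraries (-0.16 ± 0.08, limma adjusted p = 0.18). H2-Q8 stayed at or under 1.0 CPM in every library (0.37 ± 0.17, limma adjusted p = 0.19), and H2-Q2 was at 0.

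Of the classical heavy chains, H2-K1 and H2-D1 took different courses. H2-K1 had 1152 and 1129 CPM in the Ctrl libraries and 1538 and 1708 CPM in the WC1 libraries, without overlap and with a mean 1.42 times that of Ctrl. Its difference of 0.51 ± 0.13 narrowly missed the threshold (limma adjusted p = 0.056) and passed it in 6 of 17 alternatives, edgeR and DESeq2 among them, with adjusted p between 3.1e-05 and 0.40. H2-D1 had 2168 and 2090.1 CPM in the Ctrl libraries and 1966 and 1920.3 CPM in the WC1 libraries (-0.13 ± 0.14, 95% interval -0.50 to 0.24, limma adjusted p = 0.54), and the sign of this small difference turned on the TPM scale (0.01). Summed with H2-L, a related locus that C57BL/6 mice are known to lack, it gave -0.12 ± 0.14 (limma adjusted p = 0.57).

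Because H2-K1 and H2-D1 were measured in the same library, their ratio does not depend on how libraries were scaled. On the TPM scale, H2-K1 relative to H2-D1 was 0.560 and 0.570 in Ctrl against 0.825 and 0.938 in WC1. The gap between the groups was wider than the spread within either, although an exact permutation test of 2 against 2 libraries cannot give a two-sided p under 0.333. H2-K1 made up 30.9% and 31.3% of the summed heavy chain TPM in Ctrl and 38.4% and 40.9% in WC1. Shares of a total trade off, and H2-D1, whose own TPM lay between 2324 and 2387 in the 4 libraries, had a share of 55.1% and 55.0% in Ctrl against 46.6% and 43.6% in WC1, and the H2-Q genes had 4.25% and 4.51% in Ctrl against 5.99% and 7.26% in WC1.

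**Figure D4:**
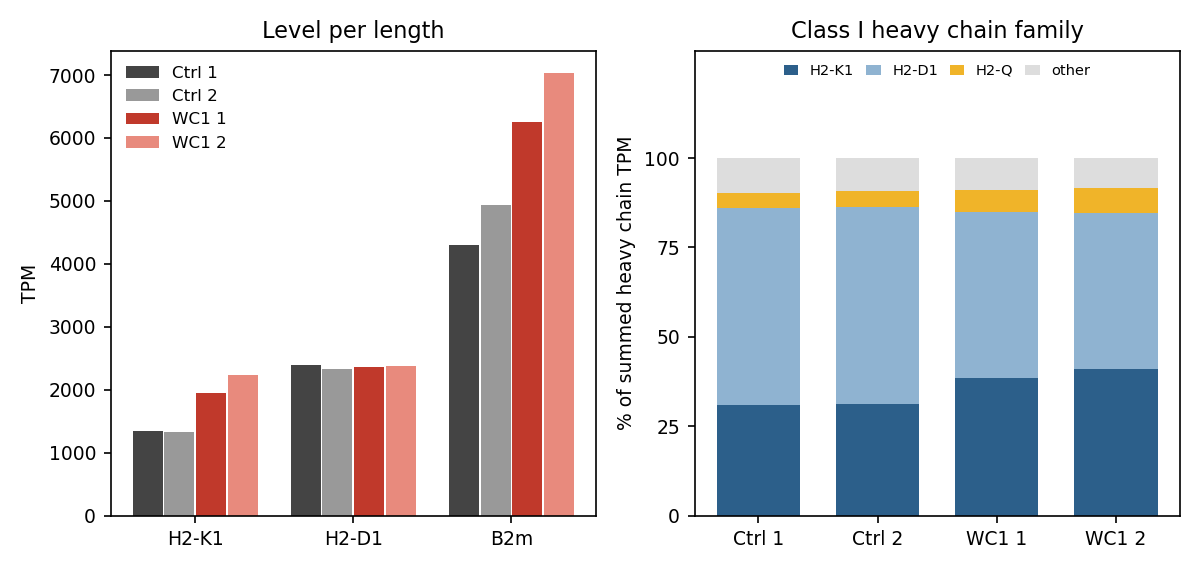
Left, TPM of H2-K1, H2-D1 and B2m in each library; right, the share of H2-K1, H2-D1, the H2-Q genes and all other heavy chain genes in the summed class I heavy chain TPM of each library. H2-K1 takes 30.9% and 31.3% in Ctrl against 38.4% and 40.9% in WC1, and H2-D1 takes 55.1% and 55.0% in Ctrl against 46.6% and 43.6% in WC1, while its own TPM lies between 2324 and 2387 in the 4 libraries.

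The H2-T genes, nonclassical heavy chains that include ligands of natural killer and gamma delta T cell receptors, held 0 calls among 5 tested by limma (3 with an unadjusted p under 0.05). H2-T22 had 6.73 and 6.18 CPM in the Ctrl libraries and 8.77 and 9.10 CPM in the WC1 libraries (0.42 ± 0.10, limma adjusted p = 0.053). H2-T10, which shares 7.06% of its 100-base stretches with other genes, had 4.02 and 5.09 CPM in the Ctrl libraries and 6.59 and 6.86 CPM in the WC1 libraries (0.48 ± 0.14, limma adjusted p = 0.068). H2-T9 had 81.4 and 77.8 CPM in the Ctrl libraries and 92.6 and 101 CPM in the WC1 libraries (0.28 ± 0.08, limma adjusted p = 0.065). Against these 3 positive differences stood H2-T23, the Qa-1 heavy chain recognised by NKG2A, at 148 and 129 CPM in Ctrl against 124 and 109.9 CPM in WC1 (-0.24 ± 0.11, limma adjusted p = 0.17). H2-T24 had 7.0 and 6.67 CPM in the Ctrl libraries and 7.65 and 7.26 CPM in the WC1 libraries (0.11 ± 0.10, limma adjusted p = 0.47).

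Among the 12 H2-M symbols 8 were at 0 in every library and 2 were tested. H2-M2 had 1.33 and 1.41 CPM in the Ctrl libraries and 2.67 and 2.95 CPM in the WC1 libraries and rose by 0.68 ± 0.12 (limma adjusted p = 0.028). H2-M3, which presents formylated bacterial peptides, had 14.7 and 15.7 CPM in the Ctrl libraries and 14.2 and 13.7 CPM in the WC1 libraries (-0.11 ± 0.09, limma adjusted p = 0.40), and its sign turned on the TPM scale (0.02). H2-K2, a neighbour of H2-K1, had 18.2 and 16.7 CPM in the Ctrl libraries and 18.2 and 17.2 CPM in the WC1 libraries (0.02, limma adjusted p = 0.91), with overlap and a sign that turned under quantile normalisation (-0.01). Reads listed under H2-L, which C57BL/6 mice lack and which can therefore only be read as unresolved class I reads, came to 27.0 and 23.2 CPM in the Ctrl libraries and 34.1 and 32.0 CPM in the WC1 libraries (0.39 ± 0.10, limma adjusted p = 0.059).

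No class I partner passed the threshold. Of B2m, Tap1, Tap2, Tapbp, Erap1 and Nlrc5, 0 were called by limma (0 with an unadjusted p under 0.05), and their differences ran from 0.01 to 0.38. B2m, the light chain of every class I molecule, had 1928 and 2193 CPM in the Ctrl libraries and 2571 and 2805 CPM in the WC1 libraries, with a difference whose 95% interval ran from -0.05 to 0.82 (0.38 ± 0.17, limma adjusted p = 0.17). It had the highest TPM of all members, 4614 ± 451 (SD) in Ctrl and 6640 ± 556 in WC1. The TPM of B2m relative to the summed heavy chains was 0.992 and 1.17 in Ctrl against 1.23 and 1.29 in WC1, without overlap.

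Nlrc5, the class I counterpart of Ciita, had 27.1 and 27.7 CPM in the Ctrl libraries and 29.8 and 35.6 CPM in the WC1 libraries (0.24 ± 0.11, limma adjusted p = 0.17). The peptide transporter subunits Tap1 (35.4 and 33.7 CPM in Ctrl, 38.2 and 41.2 in WC1) and Tap2 (66.5 and 68.9 in Ctrl, 71.2 and 81.8 in WC1) differed by 0.19 ± 0.08 and 0.17 ± 0.09 (limma adjusted p = 0.14 and 0.23). Their TPM ratio was between 0.413 and 0.452 in the 4 libraries. Tapbp (tapasin), which holds empty class I at the transporter, had 327 and 334 CPM in the Ctrl libraries and 333 and 375 CPM in the WC1 libraries (0.10 ± 0.09, limma adjusted p = 0.49). Erap1, which trims peptides in the endoplasmic reticulum, had 60.4 and 56.1 CPM in the Ctrl libraries and 58.2 and 58.8 CPM in the WC1 libraries (0.01, limma adjusted p = 0.95), with overlap, and without Ctrl 2 its sign turned (-0.04).

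**Figure D5:**
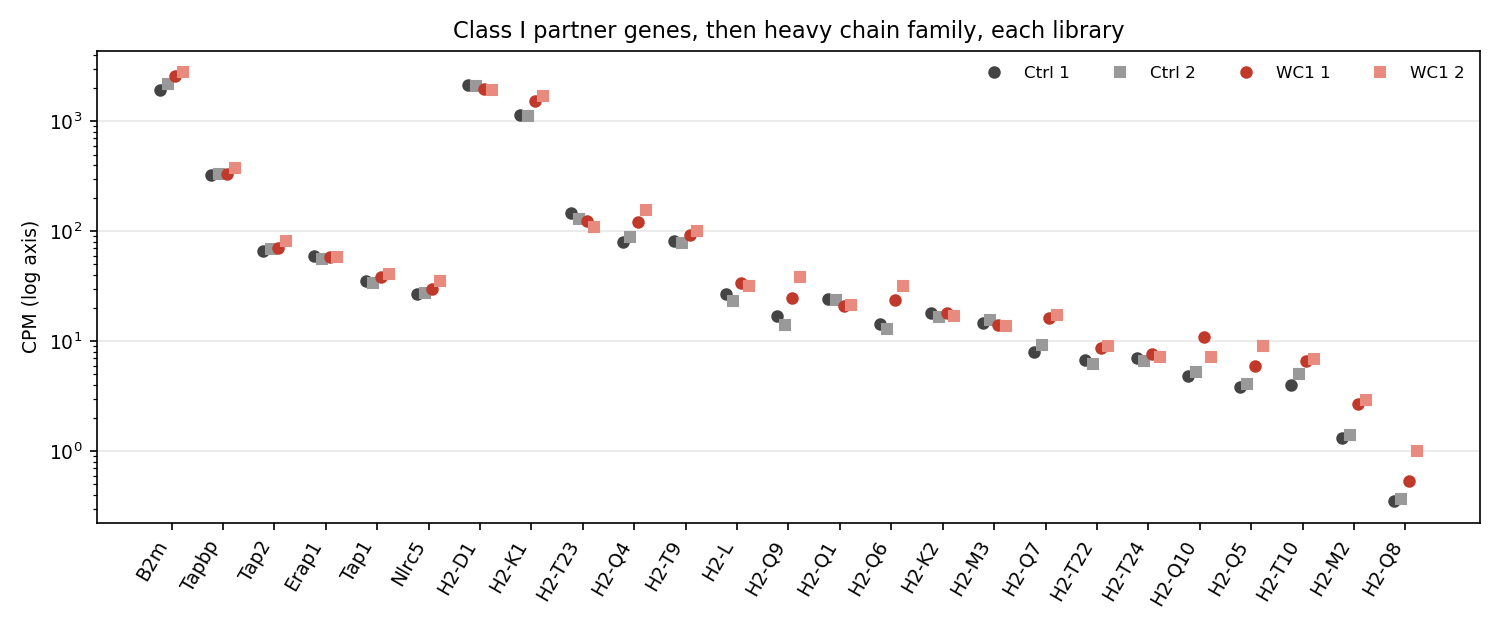
Levels of the 6 class I partner genes (left) and the 19 tested heavy chain family genes (right) in each library, in CPM on a log axis; circles are library 1 and squares library 2 of each group. The H2-Q genes from H2-Q4 to H2-Q5 apart from H2-Q1 have both WC1 libraries above both Ctrl libraries, and H2-D1 and H2-T23 have both below.

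Among further genes of class I processing, 9 were tested and limma called 0 (4 with an unadjusted p under 0.05), with a median difference of -0.02. The immunoproteasome subunits Psmb8, Psmb9 and Psmb10 differed by 0.01, 0.18 and -0.02. The 3 smallest p-values belonged to the chaperones Canx and Pdia3 and the proteasome activator Psme1, all with negative differences. Canx (calnexin) had 523 and 528 CPM in the Ctrl libraries and 256 and 375 CPM in the WC1 libraries (-0.76 ± 0.19, limma adjusted p = 0.054). Pdia3 had 956 and 1003 CPM in the Ctrl libraries and 775 and 666 CPM in the WC1 libraries (-0.45 ± 0.12, limma adjusted p = 0.065), and Psme1 differed by -0.20 ± 0.07 (limma adjusted p = 0.096).

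Subunits of the factors that bind the X and Y boxes of MHC promoters did not pass the threshold. The X box binding subunits Rfx5, Rfxap and Rfxank differed by 0.13, 0.05 and 0.14 (limma adjusted p = 0.34, 0.69 and 0.34). The Y box subunits Nfya and Nfyc differed by -0.32 and -0.21 (limma adjusted p = 0.086 and 0.099) and Nfyb by -0.01. The summed CPM of H2-Aa, H2-Ab1 and H2-Eb1 per unit of Ciita was 62.2 and 70.0 in Ctrl against 50.3 and 51.9 in WC1, so the class II chains were lower relative to their transactivator in both WC1 libraries.

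Class I-like genes outside the H2 region went in both directions. Of 6 tested, 2 rose and 1 fell, with a median of 0.11. Cd1d1, which presents lipids to natural killer T cells, had 102 and 115 CPM in the Ctrl libraries and 209 and 294 CPM in the WC1 libraries (1.19 ± 0.18, limma adjusted p = 0.022). Hfe, an iron regulator, had 104 and 111 CPM in the Ctrl libraries and 142 and 177 CPM in the WC1 libraries (0.56 ± 0.12, limma adjusted p = 0.041). Procr, the endothelial protein C receptor, had 84.7 and 71.3 CPM in the Ctrl libraries and 17.7 and 16.1 CPM in the WC1 libraries (-2.14 ± 0.11, limma adjusted p = 0.0044). The endothelial markers rose in the libraries where Procr fell. Azgp1 did not pass the filter.

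Co-stimulation genes did not follow class II. Cd80, the B7 ligand of CD28 and CTLA-4, had 10.4 and 10.3 CPM in the Ctrl libraries and 6.46 and 3.67 CPM in the WC1 libraries, without overlap. The difference of -0.95 ± 0.23 (95% interval -1.55 to -0.34) narrowly missed the threshold (limma adjusted p = 0.053) and passed it in 6 of 17 alternatives, and over all 17 the adjusted p ran from 0.0013 to 0.26. Cd86, the second B7 ligand, had 10.1 and 10.9 CPM in the Ctrl libraries and 9.49 and 9.83 CPM in the WC1 libraries (-0.11 ± 0.10, limma adjusted p = 0.46), and its sign turned on the TPM scale (0.02). On the TPM scale Cd80 relative to Cd86 was 1.55 and 1.41 in Ctrl against 1.02 and 0.558 in WC1. Macrophage and leukocyte markers were lower in the same libraries, and their part in the Cd80 values was not tested.

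Of 8 tested genes of class II surface turnover and further co-signals, 1 fell and 0 rose (median -0.22). Cd276 (B7-H3) had 34.2 and 33.7 CPM in the Ctrl libraries and 21.3 and 16.2 CPM in the WC1 libraries (-0.84 ± 0.14, limma adjusted p = 0.026). Cd274 (PD-L1) differed by 0.40 ± 0.10 (limma adjusted p = 0.057), and March1, a ubiquitin ligase that removes class II and Cd86 from the surface, had 36.8 and 35.2 CPM in the Ctrl libraries and 29.5 and 23.6 CPM in the WC1 libraries (-0.44 ± 0.12, limma adjusted p = 0.069).

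The remaining members were at or near 0. Of the 14 that did not pass the filter, H2-Q2, H2-M1, H2-M11, H2-Ea-ps and the 6 H2-M10 genes were at 0 in all libraries. H2-T3 and H2-Bl did not exceed 0.0819 CPM, and H2-M5 and H2-M9 lay between 0.0345 and 0.380 CPM. H2-Ke6 had 26.5 and 26.4 CPM in the Ctrl libraries and 24.8 and 23.0 CPM in the WC1 libraries (-0.14, limma adjusted p = 0.26), and 61.6% of its 100-base stretches were shared with the predicted gene Gm20427.

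Over the 39 members tested, 32 had a positive and 7 a negative difference, and the 12 that passed the threshold (30.8%, compared with 17.9% of all genes tested in either direction and 10.2% higher) were all higher in WC1 mice. Over all 14106 genes 6655 differences were positive and 7451 negative. On the TPM scale the median over all genes moved from -0.02 to 0.10 and the calls over all genes were 2054 higher and 583 lower, compared with 1443 and 1088 in CPM. The class II median of 0.64 was then 0.83 and the class I median of 0.37 was 0.53.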

How the data were processed

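Poly(A) RNA was sequenced from 2 Ctrl and 2 WC1 libraries made with a directional kit. The submitters' processing notes name fastp, HISAT2, StringTie and the build mm10. The sources used here give neither versions nor the annotation. The authors deposited a CPM matrix, treated as a signal proportional to reads because its columns sum to between 97.64% and 104.8% of what plain CPM would sum to, and a TPM matrix, in which the authors corrected for transcript length. All deposited signal values were whole multiples of 1 read (100% within 0.01), and reads were recovered from them.

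Genes at 0.5 CPM or more in at least 2 of 4 libraries (14106) were compared by limma 3.58.1 in R 4.3.3 on log2(CPM + 1), two-sided, with an abundance trend and Benjamini-Hochberg adjustment at 0.05. This scale understates differences of low genes. edgeR 4.0.16 and DESeq2 1.42.0 on recovered reads, other pseudocounts (0.5 and 4), filters and scalings, TPM, a replicate block and left-out libraries were alternatives. Members and lists were chosen with earlier results of these data known. Every member was accounted for. The result of 1 gene outside the members is not reported here. Members that passed the filter with a mean of at least 5 CPM or that passed the threshold were given in every library, and other lists by counts with the 3 smallest p-values and genes past the threshold. On simulated data for WC1 minus Ctrl with 200 of 14106 genes changed, limma recovered 193 (93.5% of 2-fold and 100% of 4-fold changes) with 7 false calls, edgeR 193 with 4 and DESeq2 192 with 11. The simulation gave every gene the same dispersion and held no library that departed from the rest. It therefore checks that the fits run correctly and does not give the power or the false calls for the real libraries. Shared sequence was counted as 100-base stretches of GENCODE M21 transcripts. Floors of 3 reads cover counting error only.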

Additional observations from a re-analysis of the deposited data

How the results depend on the processing

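Of 651 values recomputed under 17 alternatives, 571 kept their direction and side of the threshold, 41 newly passed it, 30 lost it (24 of these when a library was left out) and 9 changed sign. The number of class I genes called was 5 in the fit reported, 3 with low values kept in, 12 on TPM, 13 by DESeq2, 3 with near-identical genes summed (an alternative chosen after seeing the data) and between 0 and 14 when single libraries were left out. The class I median was 0.37, compared with 0.27 with a pseudocount of 4, 0.24 with low values kept in, 0.28 with a mean filter of 5 CPM, 0.53 on TPM, 0.24 with genes summed and 0.21 to 0.36 with a library left out. The number of class II genes called was 7, and between 0 and 9 when single libraries were left out. The class II median was 0.64, compared with 0.76 with the mean filter, by edgeR and by DESeq2, and 0.83 on TPM. Without Ctrl 1 or Ctrl 2 all 12 called members lost the call, and without WC1 1 H2-T23 was called lower. The lone library of a group was then assumed to vary like the other group. Signs turned for H2-K2 (-0.01 under quantile normalisation, -0.04 to 0.07 with a library left out), for Erap1 (-0.04 to 0.06), H2-Eb2 (-0.17 to 0.42) and H2-Ob (-0.21 to 0.68) with a library left out, and on TPM for H2-D1 (0.01), Cd86 (0.02) and H2-M3 (0.02). The cause of these changes was not tested.

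The replicate block gave 7 class I and 7 class II calls with medians of 0.37 and 0.64. Nothing in the labels ties equal numbers to a shared animal, cage or day, and the deviations of same-numbered libraries correlated with r = 0.19 over 14106 genes. With 2 libraries per group, an exact permutation test cannot give a two-sided p under 0.333, and genes at 0 may still be expressed at up to 3 reads.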
